A study of Mus musculus with 6 samples.

Results

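The 39 genes of the 4 Hox clusters were taken from the 24532 genes of the deposited table by symbol, as Hox followed by a cluster letter (a, b, c or d) and a paralog number. They comprised 11 genes of HoxA, 10 of HoxB, 9 of HoxC and 9 of HoxD. RNA was sequenced from kidney and ureter of mice at postnatal day 1, in 6 libraries. The groups were Ahnak KO kidney (2 libraries), WT kidney (2 libraries), Ahnak KO ureter (1 library) and WT ureter (1 library). Ahnak encodes a very large scaffold protein, and the KO mice carry a disruption of its exon 5. RNA for a library was drawn from 2 to 4 kidneys or ureters according to the methods, so a library can hold several organs. The methods name 2 biological replicates, while the labels do not state that the 2 kidney libraries of a genotype came from separate animals. The p-values then measure only the spread between these libraries. The titles number the ureter libraries among the kidneys, while their tissue label and column names read ureter.

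Hox genes encode homeodomain transcription factors that stand in 4 clusters and are numbered from the 3′ to the 5′ end of each cluster. Genes of low number are switched on early and far forward in the embryo, and genes of high number later and further back, a rule known as collinearity. Genes with the same number in different clusters are paralogs and often act redundantly. Hoxa11, Hoxc11 and Hoxd11 together are required for the metanephric mesenchyme to call out the ureteric bud, and Hoxa13 and Hoxd13 pattern the lower urogenital tract, hindgut and digits. On GRCm38, the build the table is named for, HoxA lies at chr6:52155590-52260880 on the minus strand, and HoxB at chr11:96194316-96368256, HoxC at chr15:102921103-103036852 and HoxD at chr2:74668310-74765142 on the plus strand.

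The results turn on a contrast between the 5′-most genes and genes further 3′. The 250 bases before the RefSeq start of Hoxa13 and Hoxd13 are therefore shown with those of Hoxa11 and Hoxd11. Each is read 5′ to 3′ on the strand of its gene, on GRCm38.p6. Capitals mark the dinucleotide CG. The windows are chr6:52260881-52261130, minus strand for Hoxa13, chr6:52245811-52246060, minus strand for Hoxa11, chr2:74667975-74668224, plus strand for Hoxd13 and chr2:74682073-74682322, plus strand for Hoxd11.
Hoxa13: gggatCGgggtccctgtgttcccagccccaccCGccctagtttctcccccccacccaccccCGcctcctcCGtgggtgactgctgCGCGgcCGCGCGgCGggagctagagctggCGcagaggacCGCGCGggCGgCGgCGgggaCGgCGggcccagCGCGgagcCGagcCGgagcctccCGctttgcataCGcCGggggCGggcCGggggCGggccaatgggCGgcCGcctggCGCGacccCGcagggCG
Hoxa11: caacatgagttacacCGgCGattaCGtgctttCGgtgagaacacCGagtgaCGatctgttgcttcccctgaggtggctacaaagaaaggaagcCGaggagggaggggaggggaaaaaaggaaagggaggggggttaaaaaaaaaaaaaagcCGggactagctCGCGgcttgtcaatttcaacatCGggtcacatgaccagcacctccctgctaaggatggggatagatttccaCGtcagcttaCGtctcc
Hoxd13: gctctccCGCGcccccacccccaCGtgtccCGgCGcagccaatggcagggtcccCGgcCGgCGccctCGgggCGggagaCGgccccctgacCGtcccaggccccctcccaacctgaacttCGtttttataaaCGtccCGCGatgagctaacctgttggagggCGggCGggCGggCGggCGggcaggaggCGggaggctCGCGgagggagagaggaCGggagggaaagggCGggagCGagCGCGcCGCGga
Hoxd11: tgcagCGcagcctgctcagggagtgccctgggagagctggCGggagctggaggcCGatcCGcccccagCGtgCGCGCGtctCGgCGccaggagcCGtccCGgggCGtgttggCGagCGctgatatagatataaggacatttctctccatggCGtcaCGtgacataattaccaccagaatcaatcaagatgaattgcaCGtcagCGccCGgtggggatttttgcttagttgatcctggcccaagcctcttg
The Hoxa13 window held 35 CG dinucleotides and 80.0% G and C, and the Hoxd13 window 31 and 74.4%. The Hoxd11 window held 20 and 60.4%, and the Hoxa11 window 13 and 52.0%. Both genes that were higher in ureter had more CG in these windows than the 2 lower genes shown. Those 2 were picked from 30 Hox genes lower in ureter, and the other windows were not compared by tissue. At least as many CG as in the Hoxa13 window were found in 2.97% of 32851 RefSeq windows of this length, and at least as many as in the Hoxd13 window in 5.19%. RefSeq windows were matched for 22 of the 39 Hox genes (24 windows, median 12.5 CG), and the median over all windows was 6.0. The letters CCAAT, searched on both strands, stood in the Hoxa13 and Hoxd13 windows, in 14 of the 24 Hox windows and in 33.8% of all windows. TATAAA stood in the Hoxd13 window, in 4 of the Hox windows and in 12.4% of all windows. TTTATG stood in 5 of the Hox windows and 10.8% of all, and in none of the 4 windows shown.

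The authors deposited an estimated read count, FPKM and TPM for each gene. TPM, which is scaled by gene length and sums to the same total in each library, is the level used here to compare genes, and CPM, the count scaled by library size and TMM factor, is used to compare libraries. The counts summed to 36410246 in the KO ureter, 54985927 in the WT ureter and 55744703 to 66095616 in the kidneys, so that 3 counts, taken here as the floor of a library, stood for 0.0423 to 0.1 CPM. Intervals and floors cover counting error only. Ahnak itself was counted in every library, at 139 and 131 CPM in KO kidneys, 184 and 190 CPM in WT kidneys, 631 CPM in the ureter labelled Ahnak KO and 728 CPM in the WT ureter. In TPM the order in ureter was turned, with 88.03 labelled Ahnak KO against 77.5 in WT. These values are for the whole gene and not for the disrupted exon alone, so the labels stand unchecked. KO ureter below means the library labelled so. KO kidney replicate 1 stood apart with 2910 CPM of Xist and 0 counts of 4 Y-linked genes. The other 5 libraries held at most 0.7 CPM of Xist and 8415 to 18055 Y-linked counts. These are the values of female and of male tissue, so the KO kidney libraries came from different animals and differ in sex. Of 17 tubule and podocyte markers, 11 were at 0 in both ureter libraries (Nphs1, Slc34a1 and Umod among them), and the summed level of the list was 1831 to 2058 TPM in kidneys against 36.04 in the KO and 34.6 in the WT ureter. The 12 urothelial markers summed to 122 to 141 TPM in kidneys, 10510.0 in the KO and 10400.0 in the WT ureter.

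Kidney transcribed most of the Hox genes, and ureter transcribed nearly the same set at lower level. Summed over the 39 genes, the level was 1795 ± 78.1 TPM in kidney (SD, n = 4), 371 TPM in KO ureter and 667 TPM in WT ureter. In CPM the gaps were smaller, with 1828 ± 50.1 in kidney (SD, n = 4), 526 in KO ureter and 836 in WT ureter. Between 31 and 33 genes reached 1 TPM in a kidney library, 29 in the KO ureter and 32 in the WT ureter. Hoxb13, which is known from prostate and tail, and Hoxc12 were listed at 0 in all 6 libraries, and Hoxc13, a hair follicle gene, had 2 counts in WT kidney replicate 1 and 0 in the others. The remaining 36 genes were tested between tissues with edgeR's quasi-likelihood test, with tissue and genotype as terms over all 6 libraries. At an adjusted p under 0.05, 30 of the 36 (83.3%) were lower in ureter and 2 were higher. Of all 16873 genes tested, 23.7% were lower and 21.4% higher in ureter. The median log2 fold change was -1.51 over the Hox genes and -0.08 over all genes. Without KO kidney replicate 1 the Hox counts were again 30 and 2. In fits with 1 ureter library left out, the other was assumed to vary as the kidneys do. With the number shared by kidney and ureter column names as a block, a fit added after the data were seen, Hoxa2, Hoxa6, Hoxb5, Hoxc11 and Hoxd1 lost their calls (adjusted p 0.0511 to 0.0758) and Hoxd3 gained one (0.0344). Scaling by library size alone moved the median of all genes to -0.37 and their calls from 3992 lower and 3603 higher to 6108 and 2371, and gave 31 lower and 2 higher Hox genes. In bulk tissue, fewer cells that transcribe a gene and less RNA of it per cell cannot be told apart.

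**Figure D1:**
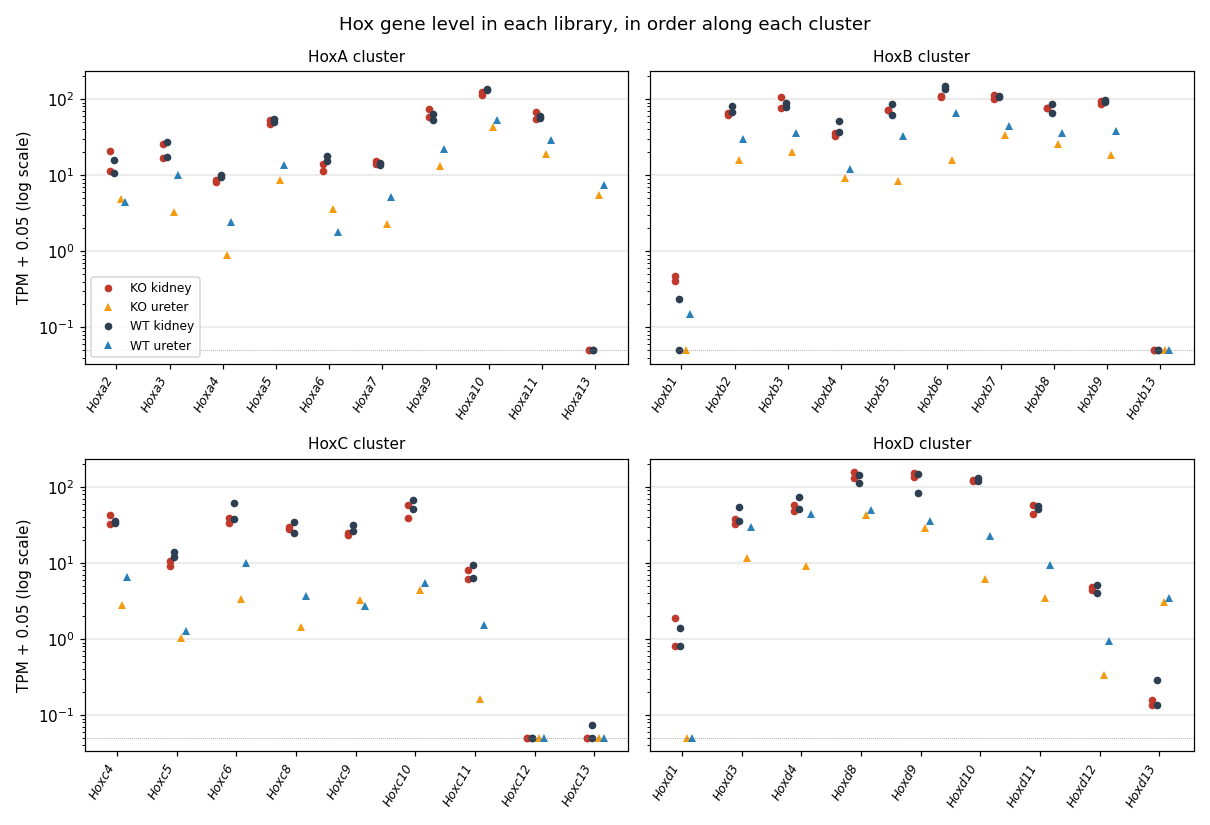
Level of Hox genes in each library, as TPM + 0.05 on a log axis, with genes ordered by paralog number in 4 panels for the clusters. Circles are kidney libraries (2 a genotype) and triangles ureter libraries (1 a genotype), the dotted line marks 0 TPM, and for Hoxa13 and Hoxd13 alone are both triangles above all 4 circles.

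The 2 genes that were higher in ureter were the only group 13 genes detected there. Hoxa13 (gene number 15398), the last gene of HoxA, had 0 counts in all 4 kidney libraries, 138 counts (5.38 TPM) in KO ureter and 289 counts (7.46 TPM) in WT ureter. Against the floor of 3 counts in a kidney library this was at least 101-fold higher in ureter (adjusted p = 0.00286). Hoxd13 (gene number 15433), the last gene of HoxD, stood at 0.0864 and 0.106 TPM in KO kidneys, 0.0854 and 0.242 in WT kidneys, 2.97 in KO ureter and 3.46 in WT ureter. These levels rest on 7 and 8 counts in KO kidneys and 7 and 17 in WT kidneys, against 144 in KO and 253 in WT ureter, and its log2 fold change was 4.97 (SE 0.53, adjusted p = 0.000644). No kidney library reached a ureter library for either gene. Group 13 took 0.00760% ± 0.00395 of the summed Hox level in kidney (SD, n = 4), 2.25% in KO ureter and 1.64% in WT ureter. With at least 10 counts required in every library, both genes fell below the filter and were not tested.

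In HoxA, every gene from Hoxa2 to Hoxa11 was lower in ureter, and over all 6 libraries the fall was least at the group 10 and 11 genes. Hoxa2, which gives the neural crest of a pharyngeal arch its identity, stood at 20.6 and 11.4 TPM in KO kidneys, 16.02 and 10.6 in WT kidneys, 4.85 in KO ureter and 4.45 in WT ureter, a change of -1.26 (SE 0.31, adjusted p = 0.0177). Hoxa3, needed for thymus and parathyroid, stood at 25.98 and 16.5 TPM in KO kidneys, 17.2 and 27.2 in WT kidneys, 3.19 in KO ureter and 10.1 in WT ureter, a change of -1.47 (SE 0.41, adjusted p = 0.0275). For Hoxa2 and Hoxa3 the tissues did not overlap. Hoxa2 lost its call without the KO ureter (adjusted p = 0.0772) or without the WT ureter (0.071). Hoxa3 lost it without the KO ureter (log2 fold change -0.83, adjusted p = 0.142), without KO kidney replicate 2 (0.0548) or without WT kidney replicate 2 (0.0834). Hoxa4 stood at 8.02 and 8.51 TPM in KO kidneys, 9.41 and 9.88 in WT kidneys, 0.8396 in KO ureter and 2.403 in WT ureter, a change of -2.19 (SE 0.36, adjusted p = 0.00384). Hoxa5, a regulator of lung development, stood at 52.4 and 47.1 TPM in KO kidneys, 55.2 and 49.9 in WT kidneys, 8.61 in KO ureter and 13.4 in WT ureter, a change of -1.85 (SE 0.15, adjusted p = 0.000219). Hoxa6 stood at 14.2 and 11.3 TPM in KO kidneys, 18.04 and 15.4 in WT kidneys, 3.52 in KO ureter and 1.72 in WT ureter, a change of -2.10 (SE 0.46, adjusted p = 0.012). Of these last 3, Hoxa4 fell the most by tissue and Hoxa6 was the only one higher in KO than in WT ureter. Hoxa6 ran from -2.95 without the KO ureter to -1.39 without the WT ureter, Hoxa3 fell to -2.27 without the WT ureter, and Hoxa4 to -2.83.

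Further 5′, HoxA held its most abundant genes, next to a Hoxa13 that kidney did not show. Hoxa7 stood at 15.4 and 14.1 TPM in KO kidneys, 14.3 and 13.8 in WT kidneys, 2.22 in KO ureter and 5.14 in WT ureter, a change of -1.65 (SE 0.29, adjusted p = 0.00544), or -2.255 without the WT ureter. Hoxa9, best known from blood stem cells, stood at 72.99 and 57.7 TPM in KO kidneys, 63.7 and 53.4 in WT kidneys, 13.1 in KO ureter and 21.9 in WT ureter, a change of -1.47 (SE 0.21, adjusted p = 0.00202). Hoxa10, a patterning gene of the lumbar spine and uterus, stood at 122 and 112 TPM in KO kidneys, 130.1 and 136 in WT kidneys, 42.96 in KO ureter and 53.2 in WT ureter, a change of -1.02 (SE 0.09, adjusted p = 0.000344). Hoxa10 was thus the most abundant HoxA gene in both tissues, at 125 ± 10.5 TPM in kidney (SD, n = 4). Hoxa11, one of the group 11 genes that kidney formation needs, stood at 67.99 and 55.5 TPM in KO kidneys, 59.5 and 57.1 in WT kidneys, 18.9 in KO ureter and 28.9 in WT ureter, a change of -0.97 (SE 0.16, adjusted p = 0.00374). Its change in ureter was the smallest of the called HoxA genes.

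In HoxB, 8 of 9 tested genes were lower in ureter, by 1.95 to 3.17 times over all 6 libraries. Hoxb1, a hindbrain gene, had 0 to 25 counts in kidney and 0 and 7 in ureter, and its log2 fold change of -1.18 (SE 2.01, adjusted p = 0.662) did not pass. Hoxb2, a hindbrain and facial nerve gene, stood at 65.4 and 61.7 TPM in KO kidneys, 81.8 and 66.8 in WT kidneys, 15.7 in KO ureter and 29.9 in WT ureter, a change of -1.27 (SE 0.17, adjusted p = 0.00165). Hoxb3 stood at 105 and 76.7 TPM in KO kidneys, 89.4 and 78.1 in WT kidneys, 19.96 in KO ureter and 35.4 in WT ureter, a change of -1.30 (SE 0.22, adjusted p = 0.00423). In both, each ureter library was below each kidney library. Hoxb4, used to expand blood stem cells, stood at 36.02 and 32.6 TPM in KO kidneys, 37.2 and 51.1 in WT kidneys, 9.05 in KO ureter and 11.96 in WT ureter, a change of -1.52 (SE 0.17, adjusted p = 0.00075). Hoxb5, a gene of the enteric nervous system, stood at 71.5 and 72.8 TPM in KO kidneys, 87.3 and 61.7 in WT kidneys, 8.32 in KO ureter and 32.4 in WT ureter, a change of -1.66 (SE 0.41, adjusted p = 0.0185). Hoxb6 stood at 109.6 and 108 TPM in KO kidneys, 136 and 150.5 in WT kidneys, 15.6 in KO ureter and 65.7 in WT ureter, a change of -1.50 (SE 0.34, adjusted p = 0.0134). In Hoxb5 and Hoxb6 the KO ureter was well below the WT ureter, and both were below the kidneys. The change of Hoxb5 was -0.89 without the KO ureter and -2.65 without the WT ureter, and that of Hoxb6 was -0.82 and -2.34. Hoxb6 lost its call with tissue as the only term (adjusted p = 0.0511). Hoxb7, whose promoter is the standard driver of transgenes in the ureteric bud, stood at 115 and 100.4 TPM in KO kidneys, 105 and 109 in WT kidneys, 33.95 in KO ureter and 43.7 in WT ureter, a change of -1.09 (SE 0.11, adjusted p = 0.000562). Hoxb8 stood at 76.4 and 75.3 TPM in KO kidneys, 87.3 and 66.5 in WT kidneys, 25.3 in KO ureter and 35.6 in WT ureter, a change of -0.96 (SE 0.15, adjusted p = 0.00295). Hoxb9 stood at 94.1 and 86.3 TPM in KO kidneys, 96.8 and 90.7 in WT kidneys, 18.3 in KO ureter and 37.8 in WT ureter, a change of -1.40 (SE 0.20, adjusted p = 0.00208). Over all 6 libraries Hoxb8 had the smallest fall of any called Hox gene.

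In HoxC, all 7 tested genes were lower in ureter, by 5.46 to 9.43 times, and over all 6 libraries each of these changes was larger than any called change of HoxB. Without the WT ureter this no longer held, with Hoxb5 at -2.65 and Hoxc9 at -2.43. Hoxc4 stood at 42.1 and 32.9 TPM in KO kidneys, 35.5 and 33.3 in WT kidneys, 2.73 in KO ureter and 6.45 in WT ureter, a change of -2.64 (SE 0.31, adjusted p = 0.000998). Hoxc5 stood at 9.19 and 10.7 TPM in KO kidneys, 11.9 and 13.7 in WT kidneys, 0.997 in KO ureter and 1.24 in WT ureter, a change of -2.96 (SE 0.22, adjusted p = 0.000147). Hoxc6, a gene of forelimb motor neurons, stood at 38.7 and 33.3 TPM in KO kidneys, 37.9 and 61.2 in WT kidneys, 3.35 in KO ureter and 9.799 in WT ureter, a change of -2.45 (SE 0.32, adjusted p = 0.00144). The ureter libraries were far below the kidneys for each of the 3. Hoxc8 stood at 29.96 and 27.6 TPM in KO kidneys, 34.6 and 24.8 in WT kidneys, 1.39 in KO ureter and 3.62 in WT ureter, a change of -3.24 (SE 0.33, adjusted p = 0.000565). Hoxc9, which sets thoracic motor neuron identity, stood at 23.3 and 24.7 TPM in KO kidneys, 31.7 and 26.1 in WT kidneys, 3.22 in KO ureter and 2.699 in WT ureter, a change of -2.76 (SE 0.24, adjusted p = 0.000281). Hoxc10 stood at 58.3 and 39.4 TPM in KO kidneys, 50.6 and 66.6 in WT kidneys, 4.35 in KO ureter and 5.38 in WT ureter, a change of -3.08 (SE 0.23, adjusted p = 0.000145). Hoxc8 had the largest fitted fall of the 3, and Hoxc9 was the only HoxC gene lower in WT than in KO ureter. Hoxc11, the third group 11 paralog, stood at 7.95 and 6.17 TPM in KO kidneys, 6.38 and 9.33 in WT kidneys, 0.112 in KO ureter and 1.47 in WT ureter, a change of -3.13 (SE 0.79, adjusted p = 0.0194). The ureter values of Hoxc11 rest on 2 counts in KO and 40 in WT, and it lost its call without WT kidney replicate 2 (adjusted p = 0.0618). Hoxc11 ran from -2.10 without the KO ureter to -5.465 without the WT ureter, and without the WT ureter Hoxc4 stood at -3.303 and Hoxc8 at -3.89.

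In HoxD, 6 of 9 tested genes were lower in ureter, 1 was higher, and Hoxd3 and Hoxd4 did not pass. Hoxd1 had 98, 40, 82 and 40 counts in the kidneys and 0 in both ureters, which made it at least 10.25-fold lower in ureter (adjusted p = 0.00742). Hoxd3, a cervical vertebra gene, stood at 38.04 and 32.9 TPM in KO kidneys, 35.1 and 53.5 in WT kidneys, 11.4 in KO ureter and 29.6 in WT ureter, and its change of -0.69 (SE 0.26, adjusted p = 0.0698) did not pass. Hoxd4, a retinoic acid target in the hindbrain, stood at 57.03 and 48.1 TPM in KO kidneys, 51.7 and 74.4 in WT kidneys, 9.102 in KO ureter and 43.8 in WT ureter, and its change of -1.03 (SE 0.42, adjusted p = 0.0933) did not pass. For these 2 genes the WT ureter lay near the kidneys and the KO ureter below them. Between the KO libraries alone, where 1 ureter stood against 2 kidneys, Hoxd3 changed by -1.17 and Hoxd4 by -2.06 on the log2 scale, and between the WT libraries alone by -0.28 and -0.23, given as values with no test. On all 6 libraries both genes passed with DESeq2's Wald test (adjusted p = 0.0224 for Hoxd3 and 0.014 for Hoxd4), limma on log2(FPKM + 1) (0.0239 and 0.03) and limma on log2(TPM + 0.1) (0.0177 and 0.0253), and Hoxd3 also with library size only (0.0312). In edgeR's test both passed without the WT ureter or without WT kidney replicate 1 (adjusted p 0.00261 to 0.0487). Hoxd8 stood at 129 and 157 TPM in KO kidneys, 144 and 112 in WT kidneys, 42.6 in KO ureter and 49.02 in WT ureter, a change of -1.17 (SE 0.16, adjusted p = 0.00171). Hoxd9 stood at 133 and 153 TPM in KO kidneys, 146 and 83.2 in WT kidneys, 29.1 in KO ureter and 35.6 in WT ureter, a change of -1.60 (SE 0.26, adjusted p = 0.00345). Both were among the most abundant Hox genes of kidney, and they fell less than the 3 genes that follow. Hoxd10, a lumbar motor neuron gene, stood at 125 and 119 TPM in KO kidneys, 118 and 129 in WT kidneys, 6.13 in KO ureter and 22.8 in WT ureter, a change of -2.87 (SE 0.40, adjusted p = 0.00202). Hoxd11, the HoxD member of group 11, stood at 58.5 and 44.3 TPM in KO kidneys, 51.1 and 55.9 in WT kidneys, 3.402 in KO ureter and 9.32 in WT ureter, a change of -2.80 (SE 0.32, adjusted p = 0.000814). Hoxd12, a limb gene, stood at 4.39 and 4.83 TPM in KO kidneys, 3.94 and 5.08 in WT kidneys, 0.284 in KO ureter and 0.8899 in WT ureter, a change of -2.66 (SE 0.46, adjusted p = 0.00467). Without the WT ureter Hoxd10 stood at -3.85, Hoxd11 at -3.49 and Hoxd12 at -3.555, and without the KO ureter Hoxd10 stood at -2.13 and Hoxd12 at -2.03. From Hoxd12 to Hoxd13 the direction turned, within 1 gene of the cluster.

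**Figure D2:**
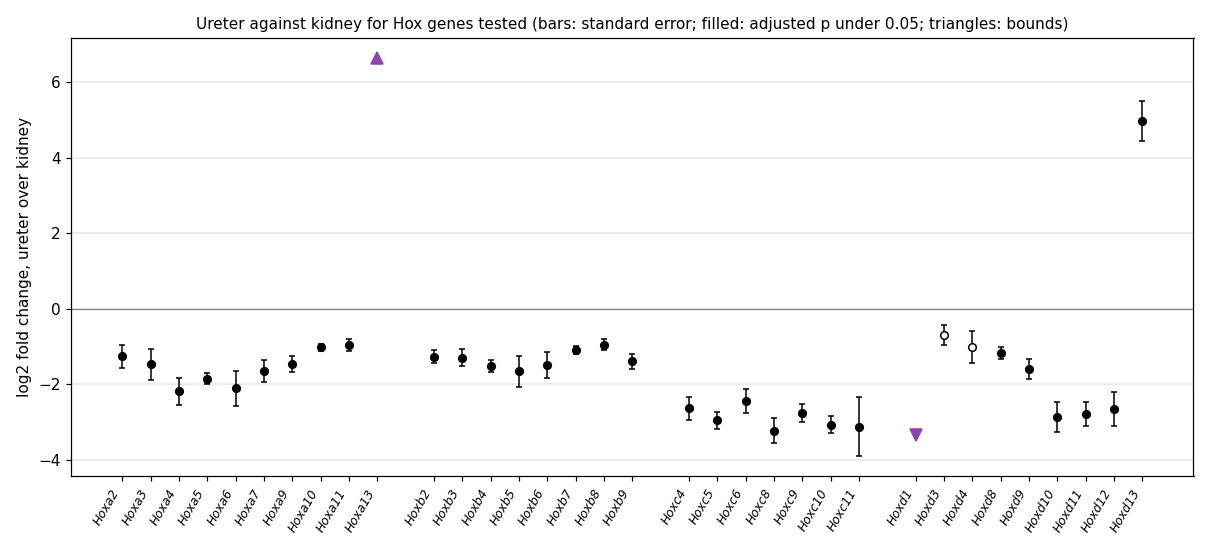
Log2 fold change of ureter over kidney for Hox genes tested, in order along each cluster, with standard errors as bars. Filled points passed an adjusted p of 0.05, open points did not, triangles give the bounds for Hoxa13 and Hoxd1 against 3 counts, and Hoxb1 is left out for its low counts. HoxC and Hoxd10 to Hoxd12 lie below -2.4, and HoxB lies between -0.96 and -1.66.

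Paralogs of a group were set against each other as ratios within a library, which no scaling factor touches, for 4 pairs. The pairs were chosen with earlier results known, and other pairs were not compared. These ratios restate the levels given above. The ratio of Hoxa10 to Hoxd10 TPM was 0.939 to 1.11 in the 4 kidneys, 7.01 in KO ureter and 2.33 in WT ureter. The ratio of Hoxa11 to Hoxd11 was 1.02 to 1.25 in kidneys, 5.55 in KO ureter and 3.10 in WT ureter. The ratio of Hoxa10 to Hoxc10 was 2.04 to 2.84 in kidneys, 9.89 in KO ureter and 9.90 in WT ureter. In these 3 pairs both ureters lay above every kidney (two-sided exact permutation test, p = 0.133 each, 0.178 adjusted over 4 pairs). With 4 against 2 libraries this test cannot give less than 0.133, so it could not pass and decides nothing here. The ratio of Hoxa9 to Hoxd9 was 0.378 to 0.641 in kidneys, and the 0.451 of KO and 0.617 of WT ureter lay inside that range (exact permutation p = 0.8).

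By cluster, HoxC lost the most of its share. It held 11.5% ± 1.13 of the summed Hox TPM in kidney (SD, n = 4), 4.35% in KO ureter and 4.60% in WT ureter. HoxA held 20.8% ± 0.825 in kidney, 28.1% in KO ureter and 22.4% in WT ureter. HoxB held 37.3% ± 0.988 in kidney, 39.3% in KO and 43.9% in WT ureter, and HoxD held 30.3% ± 2.02, 28.3% and 29.2%. The ureters lay outside the kidney range for HoxA, HoxB and HoxC, and for HoxD the KO ureter lay below it and the WT ureter within it. The mean paralog number, weighted by TPM, was 7.20 ± 0.0725 in kidney, 7.35 in KO ureter and 6.87 in WT ureter. Weighted by CPM, the KO ureter, at 7.33, lay inside the kidney range of 7.16 to 7.35, and the WT ureter, at 6.85, below it.

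**Figure D3:**
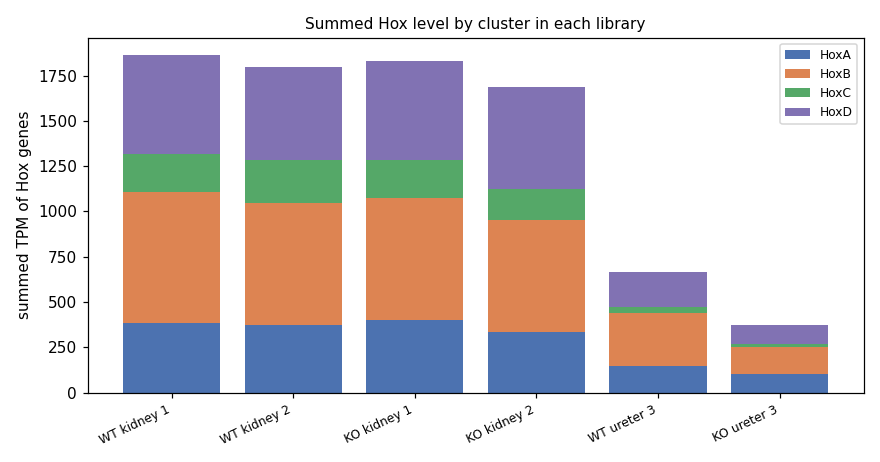
Summed TPM of the Hox genes in each library, stacked by cluster, with each bar 1 library. The kidney bars reach 1685 to 1865 TPM, the WT ureter 667 TPM and the KO ureter 371 TPM.

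Genes that work with or on the Hox clusters were read from lists, beside the 23.7% of all genes tested that were lower and the 21.4% that were higher in ureter. Of 9 TALE homeodomain genes, which encode the DNA-binding partners of Hox proteins, 3 were lower and 1 higher in ureter (median -0.40), which for so few genes is near those shares. Pbx3 stood at 43.9 and 41.05 TPM in KO kidneys, 49.1 and 39.6 in WT kidneys, 14.2 in KO ureter and 21.5 in WT ureter, a log2 fold change of -0.90 (SE 0.14, adjusted p = 0.00336). Pbx2 changed by -0.54 (SE 0.10, adjusted p = 0.00631). Meis3 was the one that rose, by 0.58 (SE 0.15, adjusted p = 0.022). Of 24 Polycomb and trithorax genes, which hold Hox clusters silent or active, 10 were lower, above the share of all genes, and 1 higher, below it (median -0.33). Cbx2 changed by -1.23 (SE 0.19, adjusted p = 0.00295), Bmi1 by -1.12 (SE 0.13, adjusted p = 0.00103) and Jarid2 by -0.88 (SE 0.13, adjusted p = 0.00277), all of them Polycomb genes. These medians are small beside the -1.51 of the Hox genes.

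Of 15 tested genes of the caudal, Gdf11 and retinoic acid list, which act upstream of Hox genes, 5 were lower and 4 higher in ureter (median -0.14), near the shares of all genes. The retinoic acid synthases Aldh1a3 and Aldh1a2 changed by -3.29 (SE 0.23, adjusted p = 0.000115) and -2.54 (SE 0.14, adjusted p = 4.65e-05), and Cyp26b1, which degrades retinoic acid, by -2.83 (SE 0.24, adjusted p = 0.000239). Rxra and Rarg, receptors of retinoic acid, rose by 1.89 (SE 0.09, adjusted p = 3.43e-05) and 1.25 (SE 0.15, adjusted p = 0.00103), and the binding protein Crabp1 by 1.47 (SE 0.17, adjusted p = 0.000857). Cdx2 and Cdx4, caudal genes that act on Hox clusters in the early embryo, were at 0 in every library. Of 16 metanephric mesenchyme regulators, 10 were lower and 3 higher (median -3.11). Six2, Gdnf and Sall1, which act beside the group 11 genes in kidney mesenchyme, stood near 0 in ureter, with changes of -7.58 (SE 0.77, adjusted p = 0.000526), -6.87 (SE 0.35, adjusted p = 3.99e-05) and -8.07 (SE 0.49, adjusted p = 7.14e-05). Tbx18, which marks ureter mesenchyme, rose by 5.29 (SE 0.13, adjusted p = 5.31e-06) and Osr1 by 2.24 (SE 0.15, adjusted p = 9.17e-05). The falls of Six2, Gdnf and Sall1 were larger than the fitted fall of any Hox gene, Hoxd1 at its floor aside.

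Non-coding RNAs inside the clusters were lower in ureter in 6 of 13 tests and higher in 0 by edgeR (median -0.77), with 0 higher at an unadjusted p under 0.05 and 0 by DESeq2's Wald test. Hoxb5os changed by -4.07 (SE 0.66, adjusted p = 0.00369), and Hotair, an antisense RNA of HoxC, by -2.43 (SE 0.55, adjusted p = 0.013). Hoxa11os, which lies antisense to Hoxa11, changed by -0.77 (SE 0.15, adjusted p = 0.00755), close to the -0.97 of its partner. Hottip, which lies beyond Hoxa13, reached at most 0.214 TPM in any library and did not pass (adjusted p = 0.116). Of 12 tested genes that flank the clusters, 6 were lower and 0 higher by edgeR (median -0.47, 0 higher at an unadjusted p under 0.05 and 0 by DESeq2's Wald test), with Cbx5 at -1.06 (SE 0.16, adjusted p = 0.00246), Cbx1 at -0.81 (SE 0.15, adjusted p = 0.00556) and Smug1 at -0.68 (SE 0.15, adjusted p = 0.0132). Evx2, next to Hoxd13, was at 0 in every library, and Evx1, beyond Hoxa13, reached 0.107 TPM in KO and 0.0472 TPM in WT ureter and 0 in all kidneys. In the annotation, 15 Hox genes share bases with another gene on their strand and 14 with a gene on the opposite strand. Hoxa3 with Hoxa4 to Hoxa6, Hoxc5 with Hoxc6 to Hoxc10, Hoxd3 with Hoxd4, and the antisense pairs above are uncertain in so far as the counting split such reads, and use of strand in counting is not given in the sources used here.

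In kidney, no Hox gene passed the test between Ahnak KO and WT. Of 34 tested with edgeR's quasi-likelihood test, 0 had an adjusted p under 0.05, against 0.0121% of 16481 genes, and 1 had an unadjusted p under 0.05 (lower in KO, against 0.582% of all genes), while DESeq2's Wald test also called 0 Hox genes. That gene was Hoxb6, named after its values were seen, at 71.7 and 73.9 CPM in KO and 89.2 and 98.7 CPM in WT kidneys, a log2 fold change of -0.37 (SE 0.11) (unadjusted p = 0.0179, adjusted p = 1). The median log2 fold change was -0.02 over the Hox genes, 32 of the 34 lay within 0.5 of 0, and 19 were below and 15 above it. Both KO kidneys were below both WT kidneys for 8 genes (23.5%, against 13% of all genes) and above them for 3 (8.82%, against 13%). Hoxa10 changed by -0.13 (SE 0.10), Hoxd10 by 0.01 (SE 0.10), Hoxa11 by 0.11 (SE 0.13), Hoxd11 by -0.04 (SE 0.14) and Hoxc11 by -0.12 (SE 0.34). Of these 5 differences, that of Hoxa10 alone exceeded its standard error, and differences of this size were not detectable with 2 libraries a genotype. Hoxb1, at a few counts, lay more than 0.5 from 0, with a log2 fold change of 2.02 (SE 1.38). The call count stayed 0 without KO kidney replicate 1, the library with Xist. By cluster the median was 0.03 in HoxA, -0.01 in HoxB, -0.23 in HoxC and 0.04 in HoxD.

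In ureter, where each genotype is 1 library and no test within that tissue was made, the KO library was lower for most Hox genes. Of 34 genes that reached 10 counts in 1 or both ureter libraries, 30 were lower and 4 higher in KO, with a median log2 ratio of -0.59, against -0.02 over 16117 genes, of which 51.8% were lower. More than 2-fold lower in KO were 9 Hox genes (26.5%), against 5.78% of all genes, and more than 2-fold higher were 0, against 4.44%. Hoxd4 had 453 counts in KO ureter and 3302 in WT ureter, a log2 ratio of -2.04 (95% counting interval -2.22 to -1.94). Hoxb6 had 401 counts in KO ureter and 2561 in WT ureter, a log2 ratio of -1.84 (95% counting interval -2.04 to -1.74). Hoxb5 had 307 counts in KO ureter and 1813 in WT ureter, a log2 ratio of -1.72 (95% counting interval -1.95 to -1.60). Hoxb5 and Hoxb6 are neighbours in HoxB, and Hoxd4 stands beside Hoxd3 in HoxD. Hoxd10 had 221 counts in KO ureter and 1246 in WT ureter, a log2 ratio of -1.64 (95% counting interval -1.92 to -1.50). Hoxa3 had 158 counts in KO ureter and 759 in WT ureter, a log2 ratio of -1.38 (95% counting interval -1.73 to -1.23). Hoxd11 had 242 counts in KO ureter and 1019 in WT ureter, a log2 ratio of -1.23 (95% counting interval -1.50 to -1.08). Neither Hoxa10 nor Hoxa11, the HoxA paralogs of Hoxd10 and Hoxd11, passed 2-fold. Hoxc6 had 104 counts in KO ureter and 460 in WT ureter, a log2 ratio of -1.23 (95% counting interval -1.68 to -1.05). Hoxd3 had 646 counts in KO ureter and 2529 in WT ureter, a log2 ratio of -1.16 (95% counting interval -1.31 to -1.06). The ninth gene, Hoxc11, had 2 counts in KO ureter and 40 in WT ureter, a log2 ratio of -1.08 (95% counting interval -6.63 to -1.59).

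The ratios are of CPM + 0.5, which draws low genes towards 0, while the intervals are of the counts alone. Without the added 0.5 CPM, the log2 ratio of Hoxc11 was -3.535, Hoxa4, Hoxa7, Hoxc4, Hoxc8 and Hoxd12 were also more than 2-fold lower in KO (2.02 to 2.77 times), and Hoxa6 was more than 2-fold higher. With the 0.5 CPM added, the other 25 Hox genes lay within 2-fold. Hoxd8 had 1698 counts in KO ureter and 2960 in WT ureter, a log2 ratio of -0.01 (95% counting interval -0.10 to 0.07). Hoxd13 had 144 counts in KO ureter and 253 in WT ureter, a log2 ratio of -0.02 (95% counting interval -0.33 to 0.28), and Hoxa13 had 138 counts in KO ureter and 289 in WT ureter, a log2 ratio of -0.25 (95% counting interval -0.58 to 0.02). For these 3 the interval included 0, so that no difference was detectable by counting. Hoxa10 had 1888 counts in KO ureter and 3564 in WT ureter, a log2 ratio of -0.13 (95% counting interval -0.21 to -0.05). Hoxa11 had 840 counts in KO ureter and 1947 in WT ureter, a log2 ratio of -0.42 (95% counting interval -0.54 to -0.31). Hoxb7 had 838 counts in KO ureter and 1636 in WT ureter, a log2 ratio of -0.17 (95% counting interval -0.30 to -0.06). These 3 intervals lie below 0. Hoxa6 had 48 counts in KO ureter and 36 in WT ureter, a log2 ratio of 0.78 (95% counting interval 0.55 to 1.87), and Hoxc9 and Hoxa2 were also higher in KO. The medians were -0.42 in HoxA (11 genes), -0.68 in HoxB (8), -0.94 in HoxC (7) and -1.004 in HoxD (8). With a pseudocount of 0.1 CPM, 13 Hox genes were more than 2-fold lower in KO (1638 of 16117 genes in all), with library size alone as the scale 14 (1310 in all), and with log2(TPM + 0.1) 15 were (2001 in all).

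**Figure D4:**
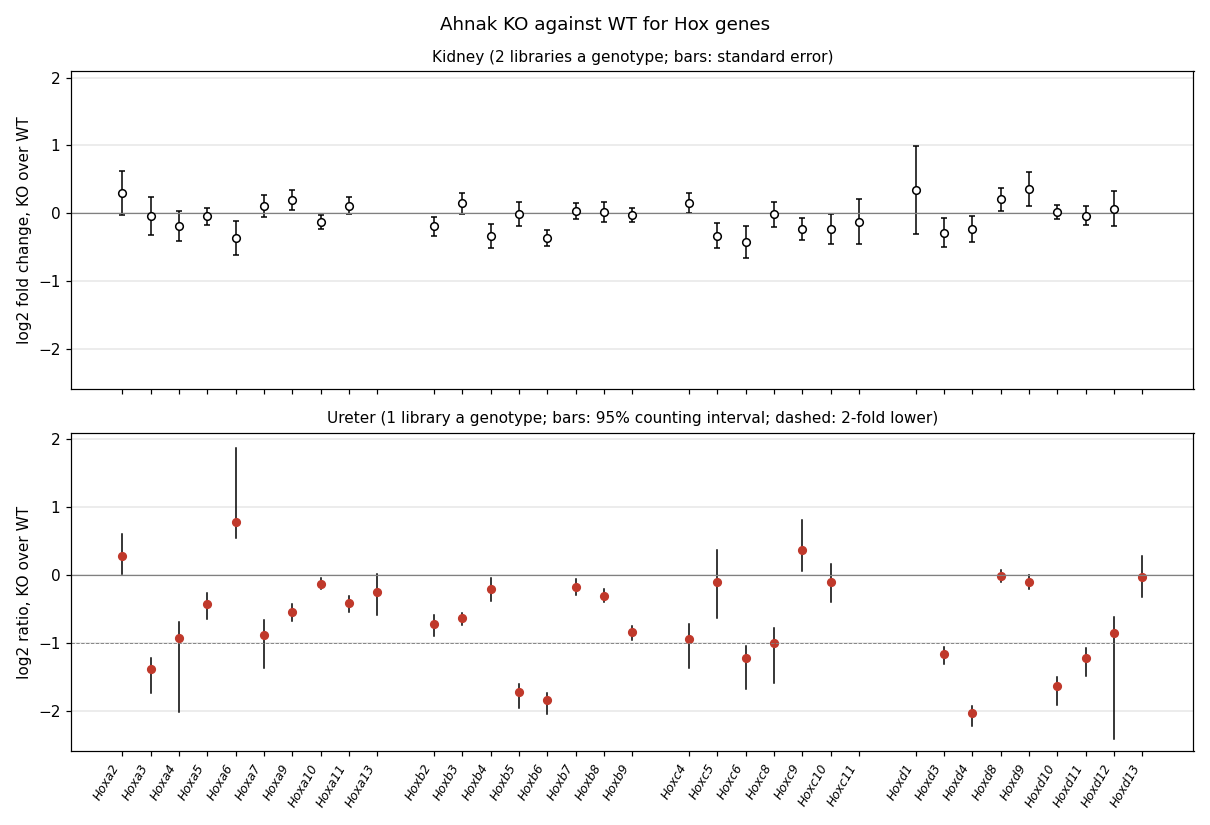
Ahnak KO over WT for Hox genes in cluster order, with the edgeR log2 fold change and standard error in kidney above and the log2 ratio of CPM + 0.5 with its 95% counting interval in ureter below. Hoxb1 and genes with 3 counts or fewer in KO ureter are left out of the panels concerned. The kidney points lie within 0.5 of 0, while 8 ureter points lie below the dashed line at -1.

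Other values moved with the ureter genotype. The KO ureter was the shallowest library. Over all genes compared in ureter, 5.78% were more than 2-fold lower in KO and 4.44% more than 2-fold higher. Striated muscle markers summed to 170 TPM in KO and 334 TPM in WT ureter (23.4 to 26.6 TPM in kidneys), with 6 of 11 compared genes more than 2-fold lower in KO and the defining genes Myod1 and Pax7 at 0 in both. Smooth muscle and ureter mesenchyme markers summed to 4486 TPM in KO and 5888 TPM in WT. Of the 13, 8 were lower and 5 higher in KO, with 0 more than 2-fold lower and 1 (Kit) more than 2-fold higher. Red blood cell markers summed to 1471 TPM in KO and 3631 TPM in WT, but the list was mixed. Of its 7 genes, 4 were more than 2-fold lower in KO and 2 more than 2-fold higher. Hbb-bs stood at 0.02345 TPM in KO and 2084 TPM in WT, and Hbb-bt at 419 and 3.53 TPM. Macrophage markers summed to 336 and 241 TPM. Urothelial markers summed to the near equal values given above, but 10 of 12 were higher in KO (median log2 ratio 0.30), 2 of them more than 2-fold. Of the 9 Hox genes past 2-fold, 8 share bases with another annotated gene, as do 15 of the other 25. Hoxb5os, antisense to Hoxb5 and Hoxb6, went the other way, at 4.22 TPM in KO and 0.751 TPM in WT ureter. The part of these values in the Hox ratios was not tested. The TALE genes were lower in KO in 9 of 9 cases (median -0.33), against 51.8% of all genes (median -0.02). The Polycomb and trithorax genes were lower in 18 of 24 (median -0.23). In either list 0 genes were past 2-fold, beside the shares of all genes given above.

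Whether the genotype difference itself differed between the tissues was tested as an interaction over all 6 libraries, an addition made after the data were seen, in which the lone ureter libraries are assumed to vary as the kidneys do. Of 36 Hox genes, 0 passed an adjusted p of 0.05 in edgeR's quasi-likelihood test, against 0.108% of 17557 genes. Hoxa13, Hoxb1 and Hoxd1 are among the 36, but a group stood at 0 for each, so their differences could not be estimated. At an unadjusted p under 0.05, 15 (41.7%) had the lower value in ureter and 1 the higher, against 7.46% and 4.92% of all genes. The lowest adjusted p belonged to Hoxd10, with a log2 difference of -1.72 (SE 0.20, adjusted p = 0.06), and to Hoxb6, with -1.52 (SE 0.21, adjusted p = 0.078). Hoxb5 followed with -1.76 (SE 0.33, adjusted p = 0.151) and Hoxd4 with -1.84 (SE 0.35, adjusted p = 0.151). Hoxa10 differed by 0.00 (SE 0.19, adjusted p = 1) and Hoxd13 by 0.54 (SE 0.99, adjusted p = 0.926). The ureter ratios of the Hox genes thus stand without a call. Within a genotype the tissue difference rests on 1 ureter library against 2 kidneys and is given as a value with no test. Hoxd13 changed by 5.24 between the KO libraries and by 4.71 between the WT libraries. The 7 tested HoxC genes changed by -2.43 to -5.46 between the KO libraries and by -2.04 to -3.14 between the WT libraries.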

How the data were processed

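RNA was sequenced on a HiSeq2500 after a stranded mRNA kit. The methods name Cutadapt, STAR, Cufflinks and GRCm39, while the submitters' processing notes list Trimmomatic 0.38, HISAT2 2.1.0, StringTie 1.3.4b and mm10, and which of them made the table was not settled here. The authors deposited an estimated count per gene, as a whole number and not normalized, and FPKM and TPM as their normalized values. A listed 0 does not prove that no read was there.

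Counts were fitted over all genes with edgeR 4.0.16 in R 4.3.3 (TMM, filterByExpr, quasi-likelihood test, Benjamini-Hochberg adjustment): tissue with genotype as a second term over 6 libraries, with 3 residual degrees of freedom, and genotype in the 4 kidney libraries, with 2. Standard errors were derived from the fold change and its F statistic. Ureter genotypes were compared as log2 ratios of CPM + 0.5 with ureter TMM factors, over genes that reached 10 counts in 1 or both libraries, with exact binomial (Clopper-Pearson) 95% intervals from scipy 1.17.1. Single-gene results of 1 Hox gene and 3 genes of the other lists are not reported here, while counts and sums include them. The other Hox genes at a mean of 1 TPM in either tissue were given in every library, those past an adjusted p of 0.05 or, in ureter, past 2-fold with 50 counts were given in full, and up to 3 rises and 3 falls were named from a list. The clusters, the 19 gene lists and the tests were chosen with earlier results of these data known. Alternatives used DESeq2 1.42.0, limma 3.58.1 and the settings given at the end. The fits were tested on simulated data. Gene positions and overlaps came from GENCODE for GRCm38, and protein sequences were not used here.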

Additional observations from a re-analysis of the deposited data

Results flagged for a closer look

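Hoxb2 had 1 kidney library apart from the other 3. On a log CPM scale, the gap of WT kidney replicate 1, the highest, to its neighbour was 0.853 of the range of the 4 libraries. This is above the limit that Dixon's test sets for 4 values. In the TPM given above, the gap was a smaller part of the range. About 1 in 20 groups is picked out in this way by chance. Without that library Hoxb2 remained lower in ureter.

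For 3 genes the KO and WT libraries were in opposite order in kidney and in ureter, as read in CPM. Hoxa6 was lower in both KO kidneys than in both WT kidneys and higher in KO ureter (log2 ratio 0.779). Hoxc9 was likewise lower in both KO kidneys and higher in KO ureter (log2 ratio 0.375). Hoxa7 was higher in CPM in both KO kidneys and lower in KO ureter (log2 ratio -0.886). In TPM its order in kidney did not hold, with 14.11 in KO kidney replicate 2 and 14.32 in WT kidney replicate 1. The order of libraries was not itself tested, and the added interaction test of edgeR gave adjusted p = 0.325 for Hoxa6, 0.478 for Hoxc9 and 0.274 for Hoxa7.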

How the results depend on the processing

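The count of Hox genes lower in ureter (30) stayed between 26 and 33 under 11 alternatives and between 28 and 32 when each library was left out, where a lone ureter library is assumed to vary as the kidneys do, as in the fits of 1 genotype. Leaving out a ureter library moved 12 of 30 called Hox genes with a fitted change by over 1.5 times. The count higher in ureter (2) was 2 in each of these, leaving out each library included, except with at least 10 counts in every library, where it was 0 because Hoxa13 and Hoxd13 were not tested. Of 606 refits of single genes between tissues, 574 kept their direction and call, 15 lost the call, 15 gained it and 2 turned: Hoxb1 ran from -7.445 without the WT ureter to 0.54 without the KO ureter, and was 0.52 in WT libraries only. Relative to the median of all genes, the Hox median was -1.43 with TMM and -1.42 with library size only. The median of the Hox genes was -1.13 without the KO ureter and -2.06 without the WT ureter. In kidney the count of Hox genes called was 0 in each direction in every alternative and in every fit that left out 1 library. The numbers in the titles do not state a shared litter or day, so they were not taken as pairs. Deviations of same-numbered kidney libraries had r = -0.19 over 16481 genes. With 2 libraries a genotype this value cannot decide whether they are pairs. With a replicate block 0 Hox genes were called, and over all genes 0 against 2, and the pairing changed no Hox call. The crossed block, added after the data were seen, gave 1 call over all genes. The number in the column headers as a replicate block, also added, gave 26 lower and 2 higher Hox genes by tissue, as Hoxa2, Hoxa6, Hoxb5, Hoxc11 and Hoxd1 lost their calls and Hoxd3 gained one. In ureter the count past 2-fold lower in KO was 9. It was 8 where 1 ureter library had to reach 50 counts, 9 with DESeq2 size factors, 10 with TMM factors from all 6 libraries and 13 with a pseudocount of 0.1 CPM. It was 14 with library size only and 15 with log2(TPM + 0.1), which moved the median of all genes to -0.20 in both, and the second also changed the pseudocount. Without a pseudocount, an alternative added after the data were seen, 14 were past 2-fold lower (1072 of 15081 genes in all) and 1 past 2-fold higher in KO. The count past 2-fold higher was 0, and 1 (Hoxa6) with a pseudocount of 0.1 CPM. The weighted mean paralog number stayed at 7.20 to 7.25 in kidney and 7.09 to 7.11 in ureter with FPKM or CPM, but with CPM the KO ureter no longer lay above the kidneys. Where no value is given above, the cause of a change was not tested. The single ureter libraries and their depth limit the genotype comparison in ureter.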
